A study of Mus musculus with 16 samples.

Results

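Malat1, Neat1, Meg3, Miat, Rian, Mirg, Snhg11 and Peg13 are long noncoding RNAs known from nerve cells and other cells of the brain, and they were examined as 1 set, chosen by gene symbol. Of the 8 RNAs, 7 had a row among the 40481 genes of the count table, all 7 were among the 14949 genes tested, and Peg13 was not analysed here. The counts came from poly-A selected RNA of brain tissue from 16 male mice bought at 18 months of age (strain C57BL in the labels, C57BL/6J in the study), all acclimated for 2 weeks, handled, injected intraperitoneally each day and fasted for 6 h at the end. The adropin group (n = 8) received the peptide adropin(34-76), the predicted secreted domain of the Enho product, at 90 nmol/kg/d in saline with albumin, and the saline group (n = 8) received the diluent. Injections ran for 2 weeks before behavioural testing and continued through it. Each mouse was 1 library, and mice are named here by the pair of numbers in their titles, which nothing in the labels explains.

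Long noncoding RNAs of this kind mostly act in the nucleus or serve as hosts for smaller RNAs. Malat1 gathers in nuclear speckles, bodies rich in splicing factors, and Neat1 is the scaffold of paraspeckles, around which proteins such as Sfpq and Nono assemble. Miat, also called Gomafu, forms its own nuclear bodies in neurons and binds splicing factors. Meg3, Rian and Mirg are made from the maternal chromosome of the imprinted Dlk1-Dio3 domain, which carries clusters of small nucleolar RNAs (snoRNAs) and microRNAs, whereas Rtl1, Dlk1 and Dio3 are made from the paternal one. Snhg11 hosts snoRNAs and is abundant in neurons. Gm42418 is a gene model of 1831 bases on chromosome 17, of which 1822 overlap, on the opposite strand, a gene annotated as ribosomal RNA, and it was measured beside the set. The annotated ribosomal RNA genes, nuclear and mitochondrial, were counted together. Adropin mouse 7_4 had the highest Gm42418 share of a library's counts (4.98%) with 1.08% from those genes. Saline mouse 8_3 had the highest ribosomal RNA share (1.87%) with 1.55% Gm42418. The ribosomal RNA gene that Gm42418 overlaps had no row in the counts, so whether Gm42418 measures such RNA was not tested.

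Malat1 (ENSMUSG00000092341, chr19:5795690-5802672, minus strand) and Neat1 (ENSMUSG00000092274, chr19:5824708-5845478, minus strand) are neighbours with 22035 bases between them, and the gene models of both hold 1 uninterrupted exon block. Meg3 (ENSMUSG00000021268, chr12:109541001-109571726), Rian (ENSMUSG00000097451, chr12:109603940-109661716) and Mirg (ENSMUSG00000097391, chr12:109729764-109749460) follow each other on the plus strand, with 32213 bases between Meg3 and Rian and 68047 between Rian and Mirg. Miat (ENSMUSG00000097767) is at chr5:112213228-112229395 on the minus strand, and Snhg11 (ENSMUSG00000044349) at chr2:158375638-158386145 on the plus strand. All coordinates are GENCODE M21 on GRCm38. The annotation classes Snhg11 as protein coding, Rian as a processed transcript and the other 5 as long intergenic noncoding RNA. On the opposite strand, Gm26906 overlaps Meg3 by 1228 exonic bases, Gm26953 overlaps Miat by 2260, and Gm37376 overlaps Malat1 by 453. Whether counting used strand is not given in the sources used here, so reads at those places are uncertain.

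Because only RNA with a run of A was selected, the ends of these transcripts bear on what was counted. The last 30 bases of the longest GENCODE transcript of each RNA are given 5′ to 3′, with the polyadenylation hexamer AATAAA or ATTAAA in capitals where 1 is present:
Malat1: ttttatgaAATAAAaactaaatatctctca
Neat1: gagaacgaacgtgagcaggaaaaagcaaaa
Meg3: gctttcAATAAAtttcttgttttaactaaa
Miat: atttcaatATTAAAaccgacacacactgga
Rian: atacttatatgagtgaaaaAATAAAaaaaa
Mirg: gaatAATAAAcatatgtcatataatgtaaa
Snhg11: gaaccacaaAATAAAcactgtcttccttaa
The hexamer stood in the last 50 bases of all but the Neat1 transcript, and of 70.6% of the 14942 tested genes with a transcript. The long Neat1 transcript and Malat1 are known to end in a triple helix in place of a poly-A tail, and which of their forms the selection held was not tested. A run of at least 10 A inside the longest transcript was present in Malat1 (12 bases, starting at base 6674 of 6983), Rian (15 bases) and Meg3 (16 bases, with 6 such runs), and in 18.9% of tested genes. In Neat1 the longest run was 7 bases.

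Of the RNAs, 3 are hosts of microRNAs, of which poly-A selected libraries measure only the precursor. RefSeq places 14 hairpins with 26 mature microRNAs within Mirg, 3 hairpins with 6 mature microRNAs within Rian and 2 hairpins with 3 mature microRNAs within Meg3. A few are shown to make plain what these transcripts carry, with the seed (bases 2 to 8) in capitals; miR-134 is known for its action on dendritic spines, and miR-453 and miR-496a-5p are the only 2 of Mirg that share a seed:
miR-770-5p in Meg3: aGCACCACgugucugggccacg
miR-370-3p in Rian: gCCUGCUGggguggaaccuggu
miR-134-5p in Mirg: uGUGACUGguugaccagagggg
miR-453 in Mirg: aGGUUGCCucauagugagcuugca
miR-496a-5p in Mirg: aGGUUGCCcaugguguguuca

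Compared per kilobase of exon (TMM-normalised CPM, the counts per 1000000 counted reads, divided by the length of all exons of the gene), the 7 RNAs fell into 3 tiers. Meg3 (mean over 16 mice 174, range 104 to 275), Malat1 (158, range 91.4 to 223) and Snhg11 (139, range 88.6 to 230) formed the highest. Meg3 exceeded Malat1 in 9 of 16 mice and Malat1 exceeded Snhg11 in 10, so these neighbours did not differ beyond their spread. Miat (26.5, range 13.8 to 42.3) and Rian (20.7, range 17.3 to 25.3) followed, with Miat above Rian in 13 mice. Neat1 (3.74) and Mirg (3.72) were lowest and alternated, Neat1 being higher in 9 mice. Snhg11 exceeded Miat, and Rian exceeded Neat1, in all 16 mice. Meg3 ranked 189th, Malat1 207th and Snhg11 251st of the tested genes by this measure, whereas Neat1 and Mirg stood at percentiles 42.7 and 42.5, so the word abundant holds for 5 of the 7 RNAs per length and not for these 2. Neat1 is measured over a gene model of 20771 bases, most of which belongs to the long form alone.

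**Figure D1:**
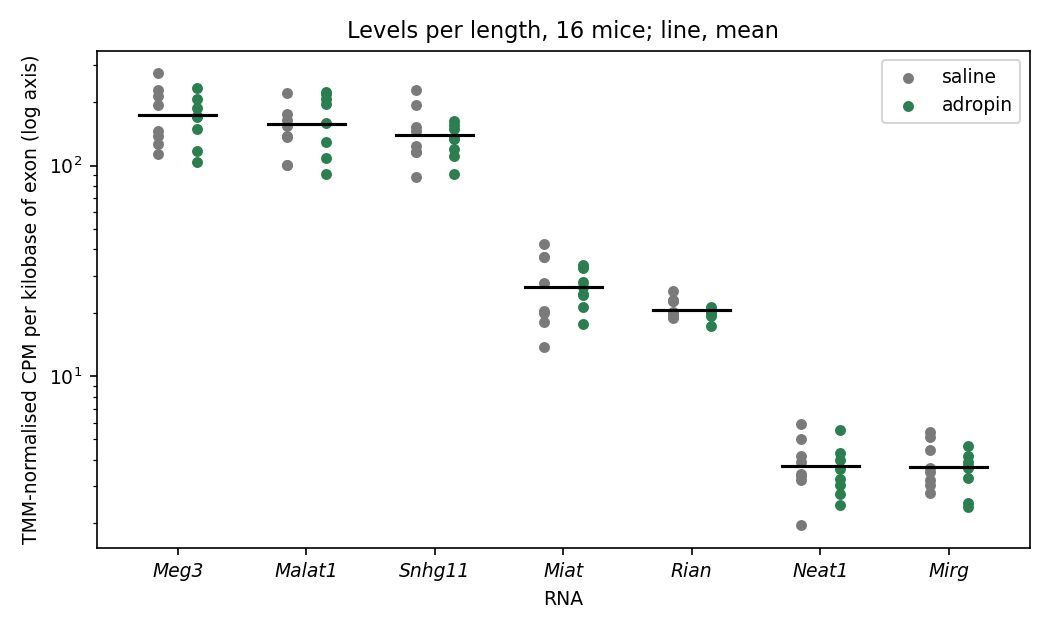
Level of each RNA in TMM-normalised CPM per kilobase of exon (log axis) in 8 saline and 8 adropin mice; each point is a mouse and the line is the mean of all 16. The RNAs form 3 tiers (Meg3, Malat1 and Snhg11 with means of 174, 158 and 139; Miat and Rian with 26.5 and 20.7; Neat1 and Mirg with 3.74 and 3.72), and both groups overlap in each.

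Whether adropin altered the levels of these RNAs was tested by edgeR's quasi-likelihood fit over all 14949 genes, with Benjamini-Hochberg adjustment over all of them. None of the 7 RNAs passed the test, either at an adjusted p below 0.05 (0 of 7, against 0% of all genes tested) or at an unadjusted p below 0.05 (0 of 7, against 3.99% of all genes). None passed the study's cut-off of a fold change over 1.5 with an unadjusted p below 0.05 (0.421% of all genes). The fold changes of 6 of the 7 RNAs were below 1, with a median log2 fold change of -0.10, beside -0.002 over all genes tested, of which 50.8% were below 0. This tally turned round when the first of the pair of label numbers was a block, again with no unadjusted p below 0.05. Of the 7 RNAs, 6 were then above 1 and only Rian below. Only the first numbers 2, 5 and 7 occur in both groups, so mice with other first numbers did not inform that group difference. Levels of a single RNA are given as TMM-normalised CPM, and RNA from bulk tissue cannot tell fewer cells of a type from less RNA per cell.

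Malat1, the speckle RNA, was the only 1 of the 7 with a higher mean in adropin mice. Its level ranged from 638 through a median of 1248 to 1559.7 CPM in adropin mice, and from 701 through 1024 to 1552 in saline mice. The mean was 1169 ± 365 (SD, n = 8) with adropin and 1043 ± 281 (SD, n = 8) with saline, a log2 fold change of 0.16 ± 0.19 (SE; adjusted p = 0.879, edgeR). It was 0.39 and 0.071 with the first and the second label number as a block, and ran from 0.098 to 0.27 without each mouse in turn. Low and high mice were present in both groups, which overlapped over nearly the whole range. Neat1, the paraspeckle scaffold, ranged from 50.8 (median 71.0) to 115 CPM with adropin and from 40.6 (median 76.2) to 123 with saline, so that all adropin mice lay within the range of the saline mice. Its log2 fold change was -0.10 ± 0.19 (SE; adjusted p = 0.911).

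Of the 3 imprinted RNAs, Meg3 had the highest CPM, which is not corrected for length. It ranged from 1881 (median 3095) to 4227 CPM in adropin mice and from 2056 (median 3084) to 4972 in saline mice. The group means of 3036 ± 789.9 and 3254 ± 1035 (SD, n = 8 each) gave a log2 fold change of -0.10 ± 0.19 (SE; adjusted p = 0.911, edgeR), and the medians nearly coincided. Mirg, the microRNA host, ranged from 17.4 (median 26.9) to 33.8 CPM with adropin and from 20.3 (median 26.2) to 39.4 with saline, a log2 fold change of -0.14 ± 0.16 (SE; adjusted p = 0.877). The groups overlapped over most of the range for both.

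Rian, the snoRNA host between them, came closest to a difference. Its level ranged from 315 (median 366) to 389 CPM in adropin mice and from 345 (median 391) to 462 in saline mice. All 8 adropin mice lay below the saline median, although 7 of them lay within the saline range. The means were 363 ± 22.3 and 392 ± 41.8 (SD, n = 8 each), the log2 fold change was -0.11 ± 0.065 (SE), the unadjusted p was 0.102 and the adjusted p 0.874 (edgeR), and the two-sided exact permutation test over 12870 divisions of the mice gave p = 0.111. Among all alternatives run, Rian's unadjusted p fell below 0.05 only without the saline mouse 8_3 (log2 fold change -0.14), a library in which choroid plexus markers summed to 2469.7 CPM against 11.9 to 74.5 CPM in the adropin mice, and their part in the Rian value was not tested. Blocking on the first of the pair of label numbers gave -0.025.

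Miat, the neuronal nuclear body RNA, ranged from 165 (median 238) to 312 CPM with adropin and from 128 (median 224) to 393 with saline, a log2 fold change of -0.05 ± 0.20 (SE; adjusted p = 0.966, edgeR). Its spread was wider in saline mice, whose SD was 98.2 CPM against 49.97 in adropin mice. Snhg11 ranged from 777 (median 1152) to 1388 CPM with adropin and from 755 (median 1158) to 1956 with saline, a log2 fold change of -0.14 ± 0.17 (SE; adjusted p = 0.879). As for Miat, the highest mouse was saline mouse 8_1, without which the log2 fold change of Snhg11 was -0.018, and the medians differed little.

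The 95% intervals of the fold changes give the precision of the comparison. They ran from 0.841 to 1.02 for Rian, from 0.839 to 1.497 for Malat1, from 0.704 to 1.24 for Neat1 and Meg3, from 0.713 to 1.31 for Miat, from 0.719 to 1.14 for Mirg and from 0.710 to 1.16 for Snhg11. Gm42418 was measured beside them. It ranged from 8159 (median 26109) to 51157 CPM in adropin mice and from 9675 (median 15299) to 32842 in saline mice, with a log2 fold change of 0.58 ± 0.33 (SE; adjusted p = 0.874, edgeR), and its groups overlapped as well. This value was not stable, being 1.21 with the first label number as a blocking factor, 0.30 with the second and 0.38 without adropin mouse 7_4, and its unadjusted p was below 0.05 in the first of these fits and without mouse 4_1, 4_3 or 5_3. Its adjusted p was at least 0.511 in every fit run.

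**Figure D2:**
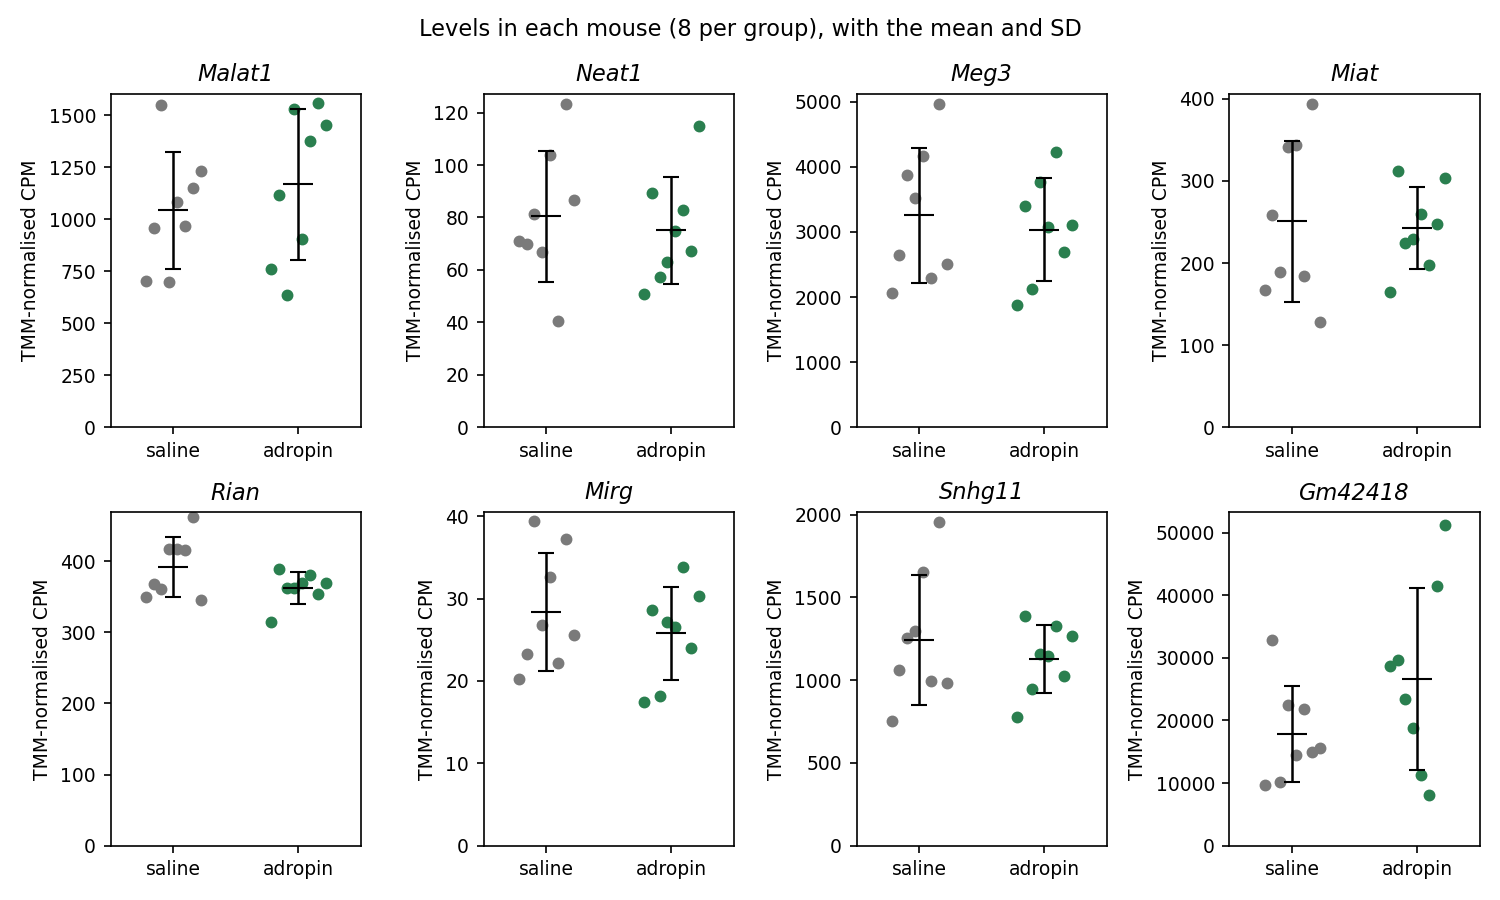
TMM-normalised CPM of each RNA and of Gm42418 in every mouse (8 saline, grey; 8 adropin, green), with the group mean and SD as a bar. The groups overlap in every panel; all 8 adropin mice lie below the saline median for Rian only.

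**Figure D3:**
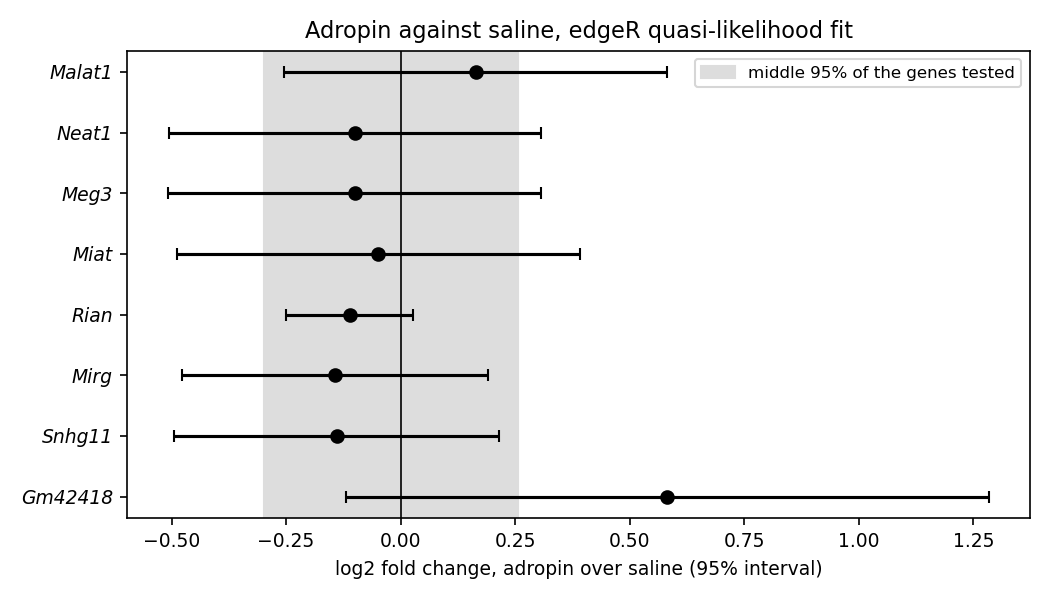
Log2 fold change of adropin over saline with its 95% interval for the 7 RNAs and Gm42418, over a grey band that holds the middle 95% of the 14949 genes tested (-0.30 to 0.26). All 8 intervals include 0, and Rian has the narrowest.

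All 7 RNAs varied more between mice of a group than between the groups, Rian by the least. The SD within groups, on the log2 scale, was 0.47 for Miat, 0.45 for Malat1, 0.43 for Neat1, 0.43 for Meg3, 0.37 for Snhg11 and 0.35 for Mirg, against a median of 0.20 over the genes tested. These 6 RNAs thus stood between percentiles 84.6 and 94.4 of all genes in spread. Rian, with an SD of 0.13, stood at percentile 21.2. Counting error alone would give an SD of at most 0.043, for Mirg. The same mice were high or low for several RNAs. Saline mouse 8_1 was the highest of 16 for 5 of the 7 RNAs and among the 4 highest for 6, and saline mouse 6_2 was also among the 4 highest for 6. Adropin mouse 1_3, the library with the largest total of 70314050 counts, was among the 4 lowest for all 7, and saline mouse 2_3 for 6. The 7 RNAs took between 0.381% and 0.933% of a library's counts.

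Covariation between mice was therefore measured as Pearson's r and Spearman's rho of log2 CPM over 16 mice after subtraction of the group means, with 100000 permutations of the mice within groups and adjustment over the 21 pairs. All 21 pairs had a positive r, with a median of 0.669, and 13 of 21 had an adjusted p below 0.05. The count was 2 in the 8 saline mice alone. It was 6 without the 2 mice farthest from the median of the first RNA of each pair. The order of the RNAs is that of the opening list, and these mice are called the 2 most extreme below. Over all 111728826 pairs of genes tested the median r was 0.0025 and the 95th percentile 0.703. Of the 21 pairs, 15 had an r of at least 0.5, a level reached by 14.1% of all gene pairs. An r of at least 0.8 was reached by 4 of the 21 and by 2.11% of all gene pairs. For an r of at least 0.9 the values were 2 and 0.381%. In 19 pairs r was positive in both groups taken alone.

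Meg3, Mirg and Snhg11 formed the tightest group. Meg3 and Mirg, on the same chromosome, had r = 0.931 (rho = 0.918, permutation p = 3e-05, adjusted p = 0.000315), with 0.947 in adropin mice and 0.919 in saline mice. Meg3 and Snhg11, on different chromosomes, had r = 0.929 (rho = 0.921, permutation p = 1e-05, which is the smallest that these permutations can give, adjusted p = 0.00021), with 0.897 in adropin mice and 0.963 in saline mice. Mirg and Snhg11 had r = 0.848 (rho = 0.865, permutation p = 0.00016, adjusted p = 0.00112). After removal of the 2 most extreme mice these 3 values were 0.896, 0.897 and 0.893. The mice removed were 1_3 and 2_3 for the pairs of Meg3, and 1_3 and 5_4 for Mirg and Snhg11. Mouse 8_1, the highest for Snhg11, stayed in, so removal by the second RNA of a pair was not tested.

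Promoters of Meg3 and Snhg11, the most strongly covarying pair from different chromosomes, are shown as RefSeq gives them on GRCm38.p6 for the bases around the start, on the plus strand. RefSeq gives 2 promoters for Meg3 and 1 for Snhg11. For Meg3 only the 1 nearest to the start of the gene model was searched. Capitals mark TATAAA, TGACGTCA and CCAAT, searched on both strands together with GGGCGG:
Meg3, chr12:109540746-109541045: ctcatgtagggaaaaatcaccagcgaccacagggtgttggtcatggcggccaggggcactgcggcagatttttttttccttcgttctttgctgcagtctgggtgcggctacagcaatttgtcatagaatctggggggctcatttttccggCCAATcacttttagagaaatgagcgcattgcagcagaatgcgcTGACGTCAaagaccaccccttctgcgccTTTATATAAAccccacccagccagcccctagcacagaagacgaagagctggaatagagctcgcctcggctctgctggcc
Snhg11, chr2:158375463-158375762: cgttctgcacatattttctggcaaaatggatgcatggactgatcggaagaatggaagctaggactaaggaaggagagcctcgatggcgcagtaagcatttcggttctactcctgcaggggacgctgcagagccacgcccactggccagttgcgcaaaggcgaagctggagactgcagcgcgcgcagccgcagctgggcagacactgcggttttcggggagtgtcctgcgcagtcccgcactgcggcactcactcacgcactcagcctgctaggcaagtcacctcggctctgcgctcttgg
The Meg3 window held 2 overlapping matches of TATAAA (1 on each strand), 1 of TGACGTCA, the cAMP response element, and 1 of CCAAT. These motifs were present in 13.6%, 1.79% and 37.4% of the 32851 RefSeq promoters, and GGGCGG, present in 35.7%, was in neither window. The Snhg11 window held none of the 4 motifs and had 21 CpG dinucleotides against 13 for Meg3.

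Miat, Rian and Snhg11 were also linked, less firmly. Miat and Rian had r = 0.790 (rho = 0.771, permutation p = 0.00265, adjusted p = 0.00696), Miat and Snhg11 r = 0.779 (rho = 0.809, p = 0.00164, adjusted p = 0.00574), and Rian and Snhg11 r = 0.817 (rho = 0.776, p = 0.00058, adjusted p = 0.00304). After removal of the 2 most extreme mice Miat and Snhg11 had r = 0.745 (adjusted permutation p = 0.0204), but Miat and Rian had 0.663 (adjusted p = 0.077) and Rian and Snhg11 0.645 (adjusted p = 0.106). In saline mice alone none of the 3 pairs had an adjusted p below 0.05. With the other imprinted RNAs Rian had r = 0.680 for Meg3 (rho = 0.626, permutation p = 0.00784, adjusted p = 0.015) and 0.514 for Mirg (rho = 0.485, p = 0.0524, adjusted p = 0.0786), the latter falling to 0.206 without mice 1_3 and 8_1. Whether these differ from its values with Miat and Snhg11 was not tested. Malat1 and Neat1 had r = 0.450 (rho = 0.462, permutation p = 0.0831, adjusted p = 0.103), and with Mirg, on another chromosome, r was 0.728 for Malat1 (rho = 0.697, permutation p = 0.00224, adjusted p = 0.00672) and 0.735 for Neat1 (rho = 0.765, p = 0.00163, adjusted p = 0.00574). Without the 2 most extreme mice the former was 0.549 (adjusted permutation p = 0.141) and the latter 0.714 (adjusted p = 0.0204). That Malat1 or Neat1 correlated more with Mirg than with each other was not tested.

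Neat1 also covaried with Snhg11 (r = 0.712, rho = 0.706, permutation p = 0.0043, adjusted p = 0.01) and with Meg3 (r = 0.669, rho = 0.644, p = 0.00643, adjusted p = 0.0135). Meg3 covaried with Malat1 (r = 0.577, rho = 0.576, permutation p = 0.0238, adjusted p = 0.0384) and with Miat (r = 0.625, rho = 0.629, p = 0.0173, adjusted p = 0.0303), but these 2 values were 0.346 and 0.506 once the most extreme pair of mice, 1 of them mouse 1_3, was left out. Malat1 had the lowest values, with r = 0.039 to Miat (rho = 0.053, permutation p = 0.881, adjusted p = 0.881) and 0.105 to Rian (rho = -0.024, p = 0.695, adjusted p = 0.729), and both were negative in saline mice alone. Meg3 thus had an adjusted p below 0.05 with each of the other 6 RNAs, but only those with Mirg and Snhg11 stayed below it both when the 2 most extreme mice were removed and when the total count was regressed out, while the adjusted permutation p with Malat1, Neat1, Miat and Rian rose to between 0.108 and 0.37 in the former case and between 0.0511 and 0.103 in the latter.

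**Figure D4:**
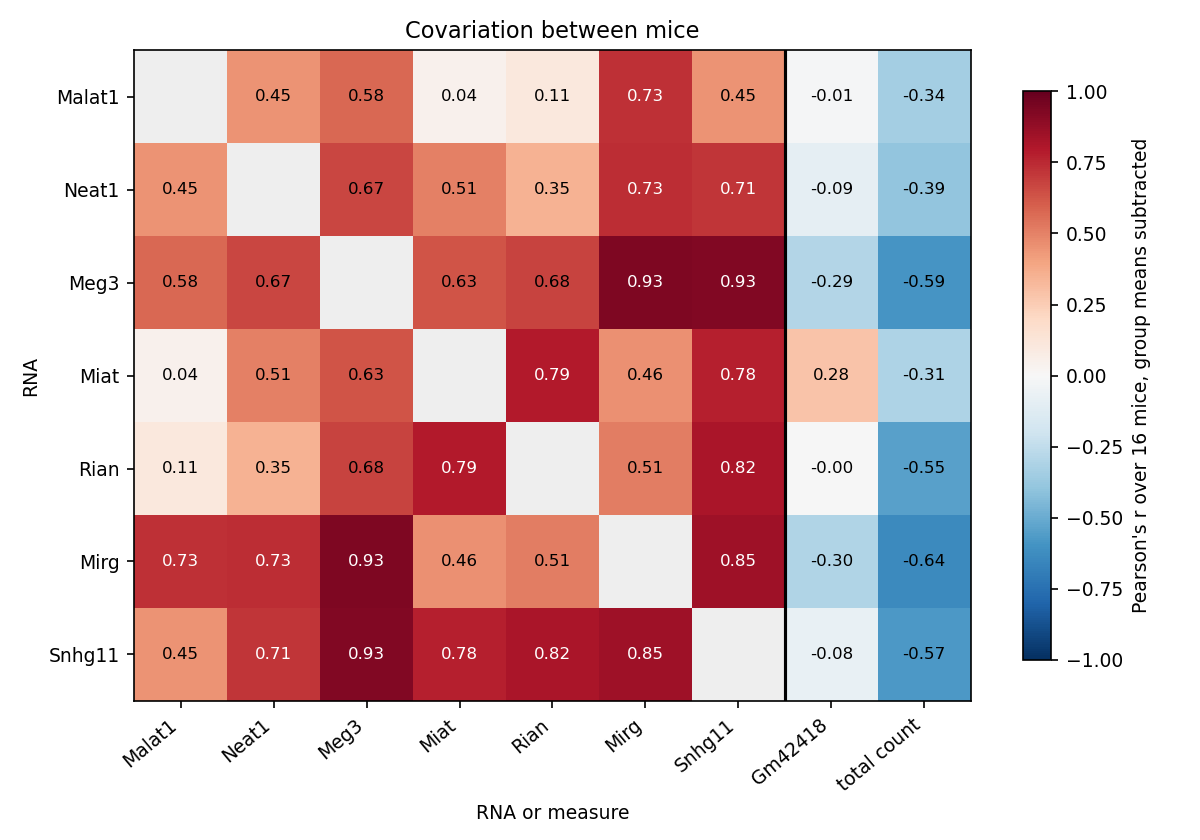
Pearson's r over 16 mice, group means subtracted, for each pair of the 7 RNAs (left of the line) and of each RNA with Gm42418 and with the log2 total count of the library (right). All pairs of RNAs are positive, from 0.04 (Malat1 and Miat) to 0.93 (Meg3 with Mirg and with Snhg11), whereas values with Gm42418 lie between -0.30 and 0.28.

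Gm42418, which varied 6.27-fold between the lowest and highest mouse, showed no detectable relation to these RNAs. Over 7 relations r ranged from -0.30 for Mirg (rho = -0.28, permutation p = 0.273, adjusted p = 0.640) to 0.28 for Miat (rho = 0.26, p = 0.245, adjusted p = 0.640), and none of the 7 had an unadjusted p below 0.05. Without saline mouse 2_3 the values of Mirg and Meg3 were -0.45 and -0.47, and without adropin mouse 4_3 they were -0.14 and -0.13. Meg3 had r = -0.29 (rho = -0.30, permutation p = 0.274, adjusted p = 0.640), and Malat1, Neat1, Rian and Snhg11 lay between -0.09 and -0.004, with unadjusted permutation p from 0.724 to 0.988. Among all genes tested these values stood between percentiles 27.4 and 69.2 of r with Gm42418, whose median was 0.01. With 16 mice an r of this size cannot be told from 0, which does not show that there is no relation.

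**Figure D5:**
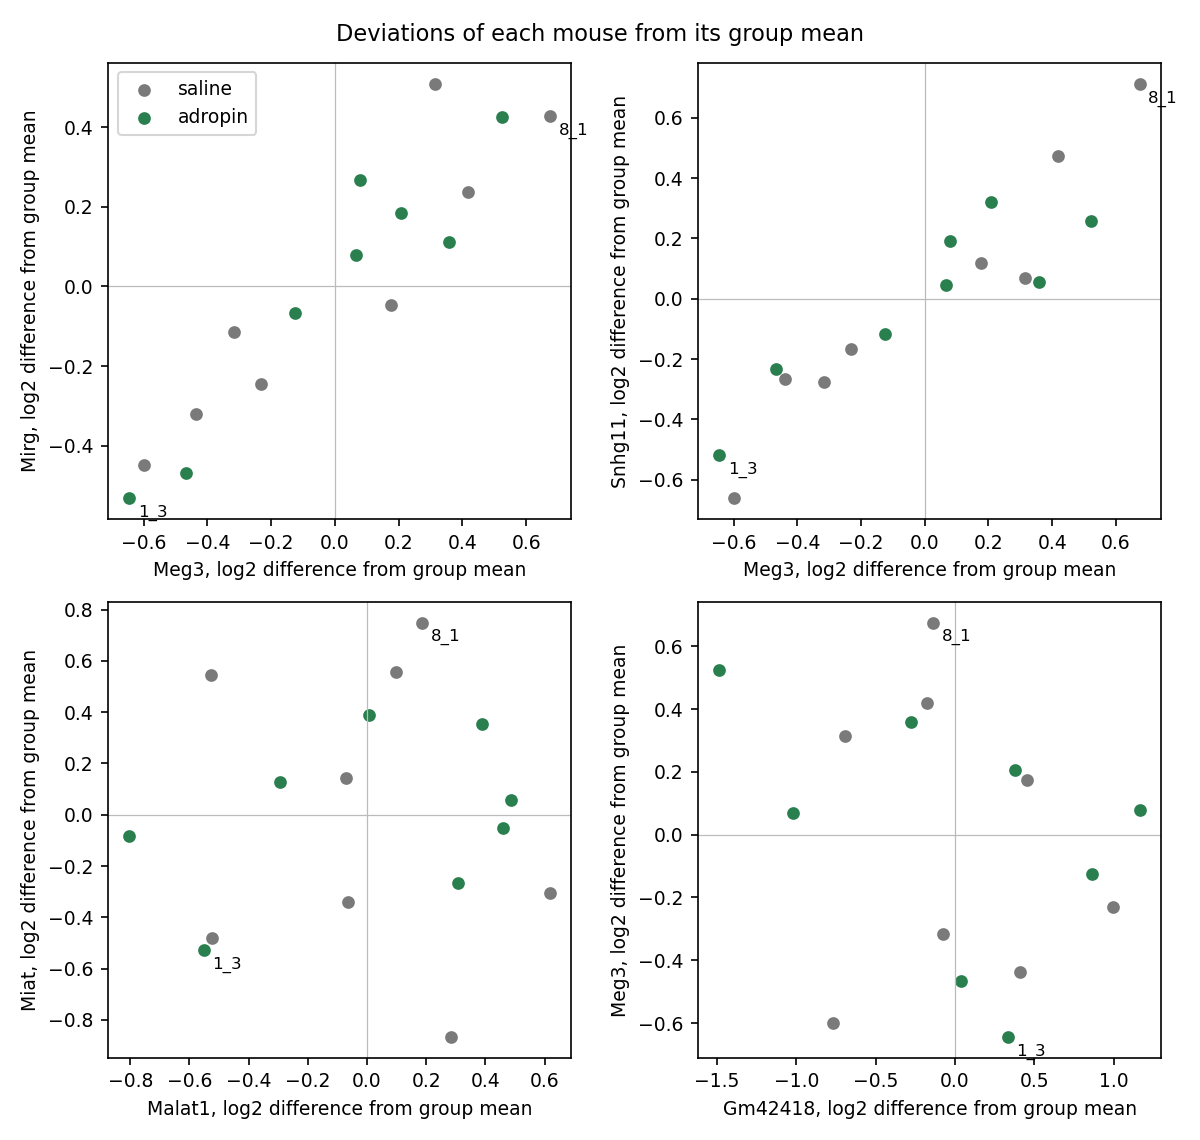
Deviation of each mouse from its group mean on the log2 scale for Meg3 against Mirg and Snhg11 (top), for Malat1 against Miat and for Gm42418 against Meg3 (bottom); mice 8_1 (saline) and 1_3 (adropin) are marked. The top panels follow a line (r = 0.931 and 0.929), the bottom panels do not (r = 0.039 and -0.29).

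The size of the library also moved with the RNAs. All 7 had a negative r with the log2 total count, and 4 of the 7 relations had an adjusted p below 0.05 for Pearson's r. These were Mirg (r = -0.64, rho = -0.65, permutation p = 0.00895), Meg3 (r = -0.59, rho = -0.54, p = 0.0147), Snhg11 (r = -0.57, rho = -0.55, p = 0.00839) and Rian (r = -0.55, rho = -0.42, p = 0.0129), each with an adjusted p of 0.0257. By rank none passed, the lowest adjusted p being 0.0612, and without mice 1_3 and 5_5, the 2 farthest in total, the 4 values were -0.58, -0.46, -0.46 and -0.34. Mirg stood at percentile 0.428 and Meg3 at 0.910 of all genes tested in r with the total, so few genes fell as steeply with it. With the total regressed out, Meg3 and Mirg had r = 0.892 and Meg3 and Snhg11 r = 0.893, and 9 of the 21 pairs had an adjusted p below 0.05. The part of depth in the covariation was otherwise not tested.

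Cell type markers were set beside the RNAs as mean scores of 8 lists, giving 56 relations, of which none had an adjusted p below 0.05 and 15 an unadjusted p below 0.05. The 8 neuronal markers, all tested, summed to 6925 to 8566 CPM in adropin mice and 6742 to 7822 in saline mice, so neuronal RNA was present throughout. Of 4 cerebellar markers, Pcp2 and Gabra6 were under the filter, and which part of the brain was taken is not given in the sources used here. The 4 summed to 15.9 to 37.8 CPM in adropin mice and to 19.8 to 281 in saline mice, the highest being mouse 8_3. The RNAs are named neuronal, and r with the neuronal score was negative for all 7, from -0.27 for Malat1 to -0.71 for Meg3 (rho = -0.74, permutation p = 0.00327, adjusted p = 0.0916). Over all genes tested the median r with this score was 0.07 and 42.0% of genes were below 0, and the 7 RNAs stood between percentiles 0.823 (Meg3) and 18.0 (Malat1). The sign was not particular to neuronal markers, since r was also negative for all 7 with the endothelial score (Meg3 at percentile 3.52, with 44.8% of genes below 0) and for 6 of the 7 with the astrocyte and the microglial score (48.0% and 48.4% of genes below 0). Mirg had r = -0.71 with the score of 6 astrocyte markers (rho = -0.60, permutation p = 0.00327, adjusted p = 0.0916), and Neat1, known to be high in glia, r = 0.57 with that of 6 oligodendrocyte markers (rho = 0.55, p = 0.0286, adjusted p = 0.142). These stood at percentiles 6.20 and 94.4 of all genes tested. The choroid plexus score, of 5 tested markers, was the only 1 whose exact permutation p between groups was below 0.05 (p = 0.0413), with all 5 lower in adropin mice and the highest sum, 2469.7 CPM, in saline mouse 8_3. Their part in the levels of the RNAs was not tested, and without mouse 8_3 the log2 fold changes of the 7 RNAs ran from -0.18 to 0.20.

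The gene whose pattern over the 16 mice was most like Miat was Leng8 (r = 0.990), followed by Zfp512b (0.958) and Ankrd13b (0.949). For Meg3 they were Akap8l (0.975), a nuclear anchoring protein gene, Fam193b (0.972) and Snapc4 (0.968), a subunit of the complex that transcribes small nuclear RNA genes. Mirg was most like Sbsn (0.967), Clasrp (0.949), which encodes a splicing regulator, and Rps6kb2 (0.946), and Snhg11 was most like Mir5125 (0.965), Rsrp1 (0.951) and Traf7 (0.951). These were picked for a high r among all genes, so the values are descriptions and carry no p. Rian was closest to Zmym6 (0.912), Guf1 (0.909) and Ankrd16 (0.898), Neat1 to Josd2 (0.913), Irf3 (0.909), the interferon regulatory factor, and Dmpk (0.896), the kinase gene whose repeat causes myotonic dystrophy. Malat1 was closest to B830012L14Rik (0.901), Gm21992 (0.867) and Ubn2 (0.858). B830012L14Rik is a noncoding RNA of the Dlk1-Dio3 domain, between Rian and Mirg.

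The number of close followers differed between the RNAs. Leaving out the set itself, 60 genes had an r of at least 0.9 with Meg3, 55 with Snhg11, 36 with Mirg and 13 with Miat, but only 2 with Rian, 2 with Neat1 and 1 with Malat1. Over all genes tested the mean was 57.0 such genes and the median 1, so the Meg3 and Snhg11 counts lay near the mean and at percentiles 82.5 and 81.9, and the other 5 RNAs lay below the mean. Meg3 shared 22 of these with Mirg (36.7% of the Meg3 list and 61.1% of the Mirg list) and 20 with Snhg11 (33.3% and 36.4%). Miat shared none of its 13 with Meg3, Mirg or Snhg11. The genes at or over 0.9 with Meg3, Mirg and Snhg11 together were Akap8l, Dennd6b, Nrbp2, Stxbp2 and Traf7, all 5 protein coding, a selection made after their values were seen.

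In the Dlk1-Dio3 domain, 8 of 9 listed genes were tested, among them Meg3, Rian and Mirg, which were already counted above. Of the 8, 7 had a log2 fold change below 0, beside 50.8% of all genes tested. None had an unadjusted p below 0.05 (edgeR; 3.99% of all genes), the smallest being those of Rian and Mirg. The 5 other tested genes were set against Meg3, Rian and Mirg, 15 relations added after the correlations above were seen. Rtl1, the retrotransposon-like gene of the paternal chromosome, followed Meg3 closely (r = 0.940, rho = 0.929, permutation p = 2e-05, adjusted p = 0.0003), and also Mirg (r = 0.795, rho = 0.788, p = 0.0008, adjusted p = 0.004) and Rian (r = 0.706, rho = 0.656, p = 0.00443, adjusted p = 0.0166). B830012L14Rik followed Mirg (r = 0.798, rho = 0.759, permutation p = 0.00061, adjusted p = 0.004) and Meg3 (r = 0.661, rho = 0.676, p = 0.00723, adjusted p = 0.0181) but had r = 0.029 with Rian (rho = -0.035, permutation p = 0.913, adjusted p = 0.914). Begain, at the edge of the domain, followed Meg3 (r = 0.688, rho = 0.735, permutation p = 0.00573, adjusted p = 0.0172). Dlk1, a Notch ligand family gene, had r between -0.08 and -0.03 with the 3 RNAs, and Dio3, the thyroid hormone inactivating deiodinase, between 0.05 and 0.14, none with an adjusted p below 0.914. The reads of Rtl1 and its antisense transcript cannot be told apart if counting ignored strand.

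Genes for proteins of speckles and paraspeckles were next compared. All 25 were tested, and 18 had a log2 fold change below 0 (50.8% of all genes), with a median of -0.02. None passed the fold change cut-off (0.421% of all genes). An unadjusted p below 0.05 was found for 2 (2 of 25, against 3.99% of all genes), 1 in each direction. Celf1, a splicing regulator, was at 205 ± 9.64 CPM with adropin and 186 ± 10.9 with saline (SD, n = 8 each; log2 fold change 0.14, adjusted p = 0.874, edgeR), and Taf15, an RNA-binding protein gene, at 37.8 ± 2.82 and 40.9 ± 2.08 (log2 fold change -0.11, adjusted p = 0.874). The median r of the 25 genes was 0.48 with Snhg11, 0.44 with Meg3, 0.42 with Rian, 0.34 with Miat and 0.28 with Mirg, and 0.21 with Neat1 and -0.06 with Malat1, the 2 RNAs known to reside in these bodies. Over all genes tested the median r lay between -0.10 (Snhg11) and -0.01 (Miat) for the 7 RNAs, and for Malat1 it was -0.06, the value of the list.

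Among the other listed genes none changed at an adjusted p below 0.05 (0% of all genes). Over all genes tested, 50.8% had a log2 fold change below 0 and 3.99% an unadjusted p below 0.05 (edgeR). These shares stand beside each tally that follows. Of 12 other snoRNA host genes tested, 11 had a log2 fold change below 0, with a median of -0.16, and 0 had an unadjusted p below 0.05; the smallest were those of Snhg14 (log2 fold change 0.11) and Snhg5 (-0.18), both with an adjusted p of 0.874 (edgeR). They had a median r of 0.56 with Malat1 and 0.47 with Mirg but -0.31 with Miat and -0.16 with Rian, against medians over all genes of -0.06, -0.08, -0.01 and -0.05. Of 16 other long noncoding RNAs known in brain, 11 were below 0 with a median of -0.10, the smallest p being that of Pantr1 (-0.20) and Airn (-0.60), a gene near the 1 CPM filter. The coding neighbours on chromosomes 19, 5 and 2 were split, with 5 of 10 tested below 0 (median 0.01), led by Ralgapb beside Snhg11 (0.16) and Tfip11 near Miat (0.11). Near the Peg13 locus, 1 of 4 tested genes was below 0 and none had an unadjusted p below 0.05, led by Kcnk9 (0.37, adjusted p = 0.874) and Ago2 (0.11, adjusted p = 0.877).

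A list of RNAs taken to mostly lack a poly-A tail, chosen with earlier results of these data known, had 5 tested members. All 5 had a higher mean with adropin, whereas 50.8% of all genes had a log2 fold change below 0. The fold change cut-off was passed by 4 of the 5, against 0.421% of all genes, with unadjusted p from 0.000936 to 0.00524 (edgeR). They were Rn7s2 (log2 fold change 1.13), Rpph1 (1.31), Rn7sk (0.98) and Rn7s1 (0.94). The fifth was Gm42418, for which a lack of a tail was not tested. Each of the 5 had an adjusted p of 0.874 (edgeR). Rn7sk, which restrains transcription elongation, ranged from 33.2 (median 76.5) to 184 CPM in adropin mice and from 29.8 (median 44.8) to 81.4 in saline mice, so the groups overlapped. Adropin mice 1_3 and 5_5, the libraries with the largest totals (70314050 and 57495099 counts), were the 2 highest for Rn7sk, Rpph1, Rn7s1 and Rn7s2. In a fit without both, chosen after these values were seen, the log2 fold changes were 0.67 for Rn7s2, 0.64 for Rpph1, 0.52 for Rn7s1 and 0.47 for Rn7sk, and only Rn7s2 passed the fold change cut-off (adjusted p = 0.999, edgeR). With the total count as a covariate 4 passed it, at 0.65 to 0.88, whereas blocking on the first of the label numbers left Rn7s1 short of it (log2 fold change 0.58, unadjusted p = 0.131, edgeR) and Gm42418 past it. The median r of the 5 RNAs was -0.58 with Rian, -0.53 with Meg3, -0.52 with Snhg11, -0.46 with Mirg, -0.31 with Neat1, -0.28 with Miat and -0.06 with Malat1, the last being the median over all genes.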

How the data were processed

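RNA from brain tissue of 16 mice (8 adropin, 8 saline) was selected for poly-A and sequenced as paired reads on an Illumina NovaSeq. STAR was used by the authors for alignment to the assembly of Ensembl release 76 (GRCm38). The counts that the authors deposited are whole reads assigned to 1 gene by featureCounts (Subread), with no normalisation, and the CPM they also deposited were not used. Of 40757 entries, 276 repeats of a gene were dropped.

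TMM factors were calculated in edgeR 4.0.16 (R 4.3.3), 355 ribosomal RNA genes were left out, and the filter of the study was applied (over 1 CPM in 7 or more mice). The comparison of groups was edgeR's quasi-likelihood test, adjusted over 14949 genes by Benjamini-Hochberg, beside a two-sided exact permutation test. Correlations used log2 CPM with a prior count of 2. Both procedures were tested on simulated data. limma-voom (limma 3.58.1), DESeq2 1.42.0, other scalings and filters, covariates, blocks and leaving out each mouse were alternatives. Figures were drawn in matplotlib 3.10.9.

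Totals from 35026503 to 70314050 counts make counting error small for these RNAs. Peg13 was not analysed here, so 7 RNAs and 21 pairs stand in place of the 8 RNAs planned. Other genes were named by a rule (the 3 most alike by r, and from each list those past the cut-off or otherwise the 2 with the smallest p). The RNAs and lists were chosen with earlier results of these data known.

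Gene positions and transcripts came from GENCODE M21, and microRNAs and promoters from RefSeq on GRCm38.p6.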

Additional observations from a re-analysis of the deposited data

How the results depend on the processing

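The direction of the small group differences was not stable. Each mouse has its own pair of label numbers, but some single numbers recur in both groups, and each of the 2 was tried as a block. Only first numbers 2, 5 and 7, and second numbers 1, 3 and 4, occur in both groups. Mice with other numbers did not inform the group difference in the fit concerned. Blocking on the first number gave positive log2 fold changes for Meg3 (0.18), Snhg11 (0.26), Neat1 (0.36), Mirg (0.065) and Miat (0.50), and on the second for Meg3 (0.029), Snhg11 (0.0057) and Miat (0.10). Miat was also positive by limma-voom (0.025), and with the total count as a covariate Meg3 was at 0.0031 and Miat at 0.0087. None of these had a p below 0.05. Without each mouse in turn, the log2 fold change ran from -0.18 to 0.012 for Meg3, from -0.21 to 0.013 for Neat1, from -0.15 to 0.071 for Miat, from -0.22 to -0.018 for Snhg11 and from -0.20 to -0.061 for Mirg, and from 0 to 1 RNAs had an unadjusted p below 0.05, the 1 being Rian without saline mouse 8_3. Of the RNAs listed as mostly lacking a poly-A tail, Gm42418 among them, 4 passed the fold change cut-off. The count was 1 without the 2 libraries of largest total and 4 to 5 without each mouse in turn. It was 4 with either block, Gm42418 standing in place of Rn7s1 with the first. Over all genes, 5 had an adjusted p below 0.05 by DESeq2, 2 with the second number as a block and up to 3 without a mouse.

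Of the 13 pairs of RNAs with an adjusted p below 0.05, 2 were left in saline mice alone. After removal of the 2 mice most extreme in the first RNA of each pair, 6 were left (median r = 0.517). In adropin mice alone 8 pairs passed, 7 of them among the 13, and with the total count regressed out 9 passed, all among the 13; the single groups hold 8 mice each, and without each mouse in turn the count ran from 9 to 15. No block was tried for the pairs. Malat1 and Miat had r = -0.19 without those 2 mice, -0.17 in saline mice and -0.071 with the total count regressed out, and Malat1 and Rian -0.14, -0.084 and -0.099, and -0.024 by rank. Without each mouse in turn these pairs ran from -0.084 to 0.17 and from -0.067 to 0.23. The relation of Gm42418 to Rian was 0.016 with DESeq2 size factors, 0.05 by rank and 0.25 in saline mice. It was 0.078 without mice 4_3 and 7_4, the 2 farthest in Gm42418. That to Malat1 was 0.041 without subtraction of group means and 0.12 in adropin mice, to Neat1 0.14 in adropin mice and to Snhg11 0.041 in saline mice. Leaving out mice moved these from -0.12 to 0.11 for Rian, from -0.14 to 0.12 for Malat1, from -0.27 to 0.040 for Snhg11, from -0.35 to -0.0012 for Neat1, from -0.45 to -0.14 for Mirg and from -0.47 to -0.13 for Meg3. The causes of these shifts were not tested. None of the 7 relations with Gm42418 had an adjusted p below 0.05 under any alternative run.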
